A study of Mus musculus with 148 samples.

Results

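Cytosine modification in enterocytes of intestinal segment 7 was compared between mice that drank milk with lactose (LAC+) and mice that drank lactose-free milk (lac-). All 13 samples of segment 7 from mice of postnatal day 90 entered the comparison, 7 LAC+ and 6 lac-, out of 148 samples in the series. The rest of the series covers other segments, postnatal day 6 (P6) and day 60 (P60) mice, and milk-fed mice sampled at other segments. The mice were C57BL/6NCrl and received, from postnatal day 30 and for 60 days, 2% milk in place of water together with ordinary chow. Segment 7 is labelled proximal ileum and was obtained by cutting duodenum, jejunum and ileum into equal parts. The numbering in the paper, however, places another ileal segment ahead of it. The milks came from different producers, and sucrose was added to the LAC+ milk to bring its consumption near that of the other, so the diets differed in more than lactose. Enterocytes, the absorptive cells of the epithelium, were detached from the villi by chelation. The files hold DNA modification and no transcripts, so markers of enterocytes and of other cells could not be read in them. Each value is a mean over the cells of a sample, and a different mix of cells cannot be told apart from a different modification per cell.

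Lct encodes lactase, the brush border enzyme that splits lactose into glucose and galactose. Mcm6, its neighbour, encodes a subunit of the replicative helicase, and introns of the human gene are known to hold regulatory sequence for lactase. Cytosines that precede a guanine (CpG) can carry a methyl group, which bisulfite treatment leaves unconverted, and such marks at promoters and enhancers often accompany low transcription. The measurement cannot separate methylation from hydroxymethylation, so the term modification is used. The other captured targets lie mostly at imprinted genes, where a single parental copy is modified and the other is not, and which therefore serve as a set of CpGs outside the lactase locus.

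Padlock probes captured short gaps of bisulfite-converted DNA at the Lct-Mcm6 locus on chromosome 1 (GRCm38) and at autosomal targets elsewhere. Both genes are transcribed from the minus strand, with Mcm6 upstream of Lct. The following stretches hold the tested CpGs of Lct exon 12 and a part of those of Mcm6 intron 1. They are printed 5′ to 3′ on the plus strand of GRCm38, with each CpG in capitals.
Lct exon 12, chr1:128293671-128293746: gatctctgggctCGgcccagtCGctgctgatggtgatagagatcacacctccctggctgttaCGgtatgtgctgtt
Mcm6 intron 1, chr1:128358471-128358613: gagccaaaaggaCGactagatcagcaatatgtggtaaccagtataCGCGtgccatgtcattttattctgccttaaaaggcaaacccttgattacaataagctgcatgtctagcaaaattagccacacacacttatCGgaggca

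The first stretch lies inside exon 12 of Lct, which runs from 128293627 to 128293829, and holds 3 CpGs. The second lies inside intron 1 of Mcm6, from 128355660 to 128359458, and holds 4 CpGs, a pair of them adjacent. A single plus-strand probe read the 3 CpGs of the first stretch across a gap of 140 bases, from 128293600 to 128293739. Its 2 arms, in the converted letters of the probe design, show what was hybridised on either side of the gap.
Ligation arm of the exon 12 probe: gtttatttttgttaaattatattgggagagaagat
Extension arm of the exon 12 probe: tgttgttgtagagatgttaagtttt

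The sequencing layout differed between the diets. Each file name carries a lane number, and some names carry a mark that the file was merged, whose meaning is not given in the sources used here. All 7 LAC+ samples came from lane 1, where replicates 3 to 7 were merged and replicates 1 and 2 were not. Of the 6 lac- samples, replicate 5 came from lane 1 and was merged, replicates 1, 2, 3 and 6 came from lane 6 unmerged, and replicate 4 came from lane 7 unmerged. The merged lac- replicate 5 stood closer to a LAC+ sample than to any other lac- sample. Over CpGs covered in every sample it differed from LAC+ replicate 7 by 2.02 percentage points on average, which was the smallest value among the pairs of samples compared. These samples also had the highest median reads per covered CpG of the locus, 5635 and 5777. The part of depth in their closeness was not tested. Given this layout, lane and diet cannot be told apart except through lac- replicate 5. The main diet differences are given for all samples and within kinds of file.

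Depth varied widely between samples. Read counts summed over all cytosines of the locus, with a read counted at each cytosine it covers, ran from 20112388 to 83605512 in a sample. These sums had a mean of 45844660 in LAC+ and 38627047 in lac- (two-sided exact permutation test, p = 0.593). The medians were 45010469 in LAC+ and 25131617 in lac-. The sums were 44132044 to 83605512 in merged files, and 20112388 to 27422148 in unmerged files apart from lac- replicate 3 with 57499422. The median number of reads per covered CpG of the locus was 1219 to 5777. Apparent modification at cytosines outside CpGs, where incomplete conversion and true modification cannot be told apart, averaged 0.755% in LAC+ and 0.760% in lac- within the locus (exact permutation test, p = 0.819). At the other targets it averaged 1.44% in LAC+ and 1.14% in lac- (p = 0.175, exact permutation test). Intervals and p-values here measure the spread between samples, and nothing in the labels ties samples of different segments to the same mouse.

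No single CpG separated the diets past the threshold of the study's design, a Bonferroni-adjusted p of 0.01. Of 1142 CpGs tested, 323 at the locus and 819 at other targets, 0 passed (0.0%), and 0 passed a Benjamini-Hochberg threshold of 0.05 in the quasi-binomial model or in limma. The lowest adjusted p was 0.226 by either correction, and 0.0298 without LAC+ replicate 1 in the quasi-binomial model. Without adjustment, 178 CpGs (15.6%) had p under 0.05, against 171 in limma. Of these, 135 (11.8%) were lower in LAC+ and 43 (3.77%) were higher.

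The CpGs with a low unadjusted p were spread over the locus and the other targets alike. They made up 47 of 323 CpGs at the locus (14.6%), 30 of them lower and 17 higher in LAC+, and 131 of 819 at the other targets, 105 of them lower and 26 higher. The median difference (LAC+ minus lac-) was -0.07 percentage points at the locus and -0.42 at the other targets, beside -0.28 over all tested CpGs. Within Lct, 11 of 65 exonic CpGs (16.9%) and 13 of 95 intronic CpGs (13.7%) had an unadjusted p under 0.05. Within Mcm6 the counts were 4 of 54 exonic CpGs (7.41%) and 11 of 51 intronic CpGs (21.6%). Of the 115 tested CpGs whose modification varied along the intestine of P60 mice, 17 (14.8%) had a low p, and of the other locus CpGs 30 did (14.4%). Neither share departs far from the 15.6% of all CpGs.

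Comparing the diets within each kind of file left fewer CpGs with a low p. Over all samples, 164 of the 1045 CpGs covered in every sample had an exact permutation p under 0.05. When diet labels were exchanged only among merged and only among unmerged files, 18 of 1045 CpGs covered in every sample (1.72%) had a permutation p under 0.05, at a design whose smallest p is 0.00794 over 126 arrangements. Of the 172 such CpGs with an unadjusted p under 0.05 over all samples, 170 had the same sign within kinds of file and 16 had a within-kind permutation p under 0.05, against 809 and 18 of all 1045. These CpGs were chosen on the same samples, so the shared sign is not independent of the choice. Their median size was 3.71 percentage points over all samples and 1.94 in the same direction within kinds of file, beside 1.41 and 0.752 for all 1045. The within-kind values keep their sign against the all-sample direction, so opposite signs lower them. The median difference (LAC+ minus lac-) within kinds of file was -0.29 over all 1045, -0.09 at the locus and -0.46 at the other targets. In 122 of the 172 (70.9%) the merged lac- sample lay on the LAC+ side of the unmerged lac- mean, beside 737 of all 1045 CpGs (70.5%).

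**Figure D1:**
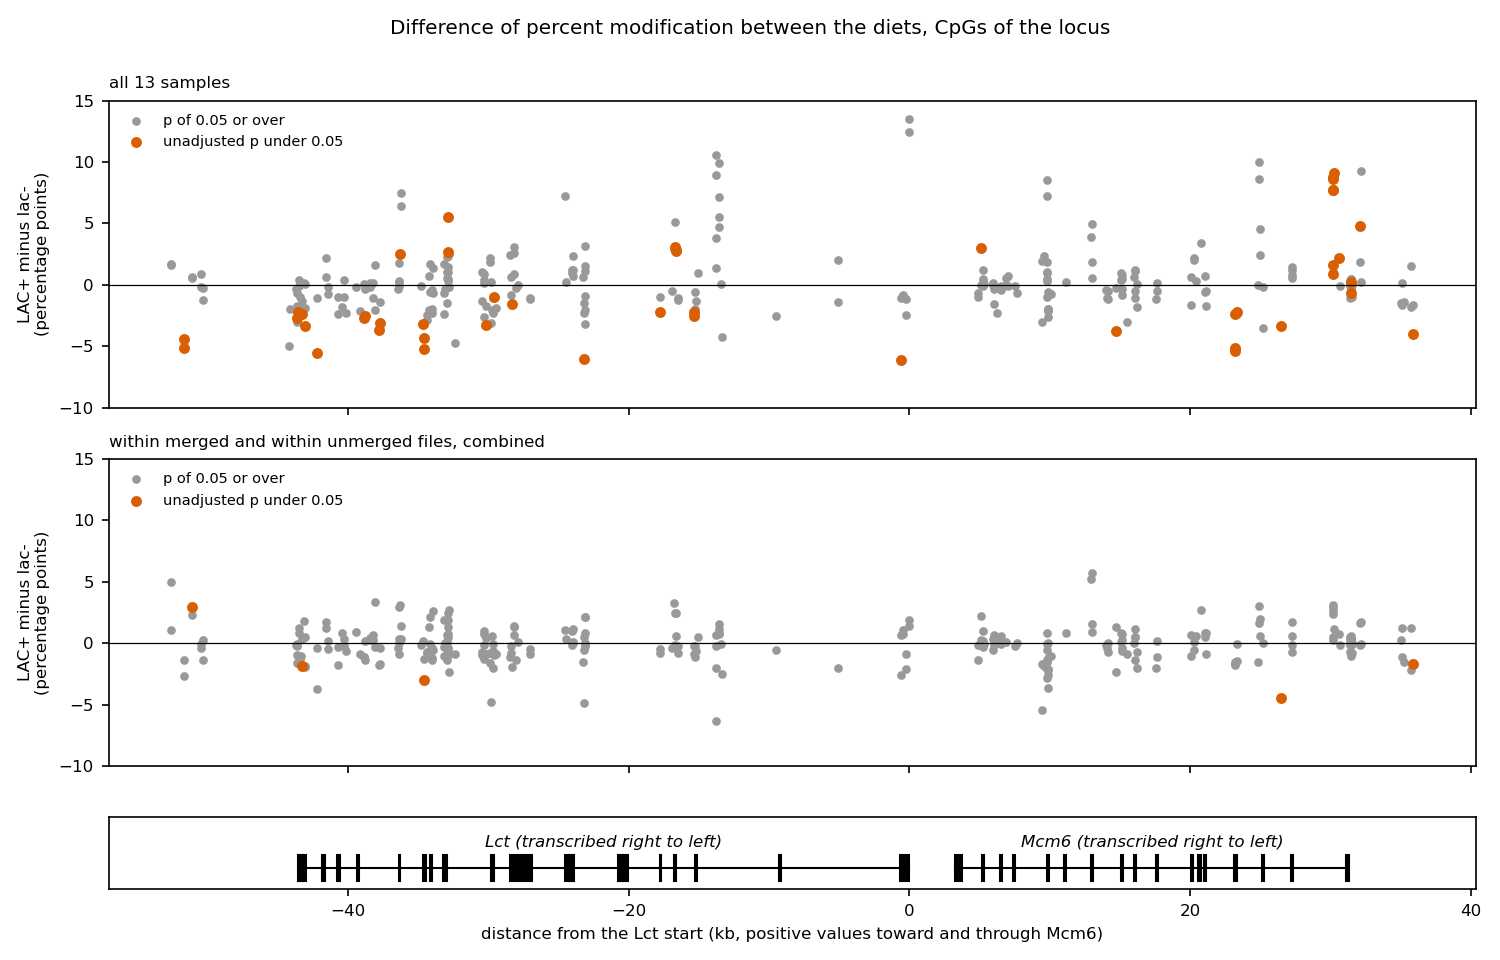
Difference of percent modification (LAC+ minus lac-, percentage points) at each tested CpG of the locus against its distance from the Lct start (kb), over all 13 samples (upper panel) and within merged and unmerged files combined (middle panel), with the exons of both genes (lower panel). Coloured points have an unadjusted p under 0.05. The points lie nearer to 0 in the middle panel.

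Lct exon 12 had a lower mean modification in LAC+ mice. The 3 CpGs averaged 81.3% ± 3.60 (SD, n = 7) in LAC+ and 85.5% ± 1.24 (SD, n = 6) in lac-. The LAC+ samples ran from 77.3% through a median of 80.5% to 86.9%, and the lac- samples from 83.3% through 85.97% to 86.8%. The 5 merged LAC+ samples were the lowest of all 13, the merged lac- sample came next, and the 2 unmerged LAC+ samples lay at 85.2% and 86.9% beside the unmerged lac- samples, so the diets overlapped. The difference was -4.25 percentage points (95% interval -7.57 to -0.81, two-sided exact permutation test over 1716 arrangements, p = 0.0245, whose smallest possible value is 0.00058). It did not pass after Benjamini-Hochberg adjustment over the 8 region means (adjusted p = 0.0668, exact permutation test). Another 2 CpG positions of the exon were left out for a mean over 90%. With them kept, the difference was -3.90 (exact permutation test, p = 0.015, adjusted p = 0.0606).

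Within kinds of file the exon 12 difference was -1.39 percentage points (exact permutation test, p = 0.175). Merged files averaged 79.3% in LAC+ and 83.3% in the single lac- sample. Unmerged files averaged 86.1% in LAC+ and 85.95% in lac-. All 3 tested CpGs of the exon had a lower LAC+ mean, with differences of -3.18, -4.33 and -5.24 percentage points. Their unadjusted p-values were under 0.05, and all 3 varied along the intestine in P60 mice. Within kinds of file these differences were 0.18 (exact permutation test, p = 0.881), -1.32 (p = 0.302, exact permutation test) and -3.03 (exact permutation test, p = 0.0159), so the first turned sign. Because 1 probe read all 3, they are not independent readings.

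The third of these CpGs, at 128293733 on the plus strand, had the lowest p at the locus. It averaged 85.5% ± 2.99 (SD, n = 7) in LAC+ and 90.8% ± 1.38 (SD, n = 6) in lac-, from 1423 to 7555 reads per sample. LAC+ values ran from 81.5% through 85.5% to 89.5%, and lac- values from 89.2% through 90.5% to 92.5%. The overlap consisted of the merged lac- sample and 1 unmerged LAC+ sample. The difference of -5.24 had a quasi-binomial p of 0.00103 and a Bonferroni-adjusted p of 1.0, and an exact permutation p of 0.00408. Adjusted over the 323 locus CpGs alone, its quasi-binomial p was 0.331 (Bonferroni). In segment 7 of P60 mice, which drank water, the same CpG stood at 91.4%.

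Mcm6 intron 1, a region with little modification that the study used as a negative control, had a higher mean in LAC+ mice. Its 9 CpG positions averaged 15.1% ± 4.35 (SD, n = 7) in LAC+ and 9.95% ± 1.94 (SD, n = 6) in lac-. Values of LAC+ samples went from 7.95% through 16.4% to 19.9%, and lac- samples from 8.40% through 9.47% to 13.7%. The merged LAC+ samples were the highest, followed by the merged lac- sample, while the unmerged LAC+ samples lay on either side of the unmerged lac- samples. The difference of 5.17 percentage points (95% interval 0.83 to 9.41) had an exact permutation p of 0.0251, with an adjusted p of 0.0668.

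The intron 1 difference was 1.51 percentage points within kinds of file (exact permutation test, p = 0.198). Merged files averaged 17.4% in LAC+ against 13.7% in lac-, and unmerged files 9.45% against 9.19%. Of the 9 positions, 8 were higher in LAC+, each with an unadjusted p under 0.05, by 0.87 to 9.12 percentage points. The largest of these was at 128358607 on the minus strand, with 20.7% in LAC+ and 11.6% in lac-. Of all tested CpGs, 15.6% had such a p. The 9 positions lie at 6 CpGs. A single minus-strand probe, with a gap from 128358462 to 128358569, spans 128358484, 128358517 and 128358519. The positions are therefore not independent readings. At 128358517 on the minus strand, within the adjacent pair of CpGs printed above, the mean was 28.8% ± 6.74 (SD, n = 7) in LAC+ and 20.2% ± 3.63 (SD, n = 6) in lac-. The plus-strand cytosine of that CpG, read by another probe, gave 27.7% and 20.01%, a difference of 7.72 (exact permutation test, p = 0.0216). Thus a region of low level had higher LAC+ means while exon 12, of high level, had lower ones.

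**Figure D2:**
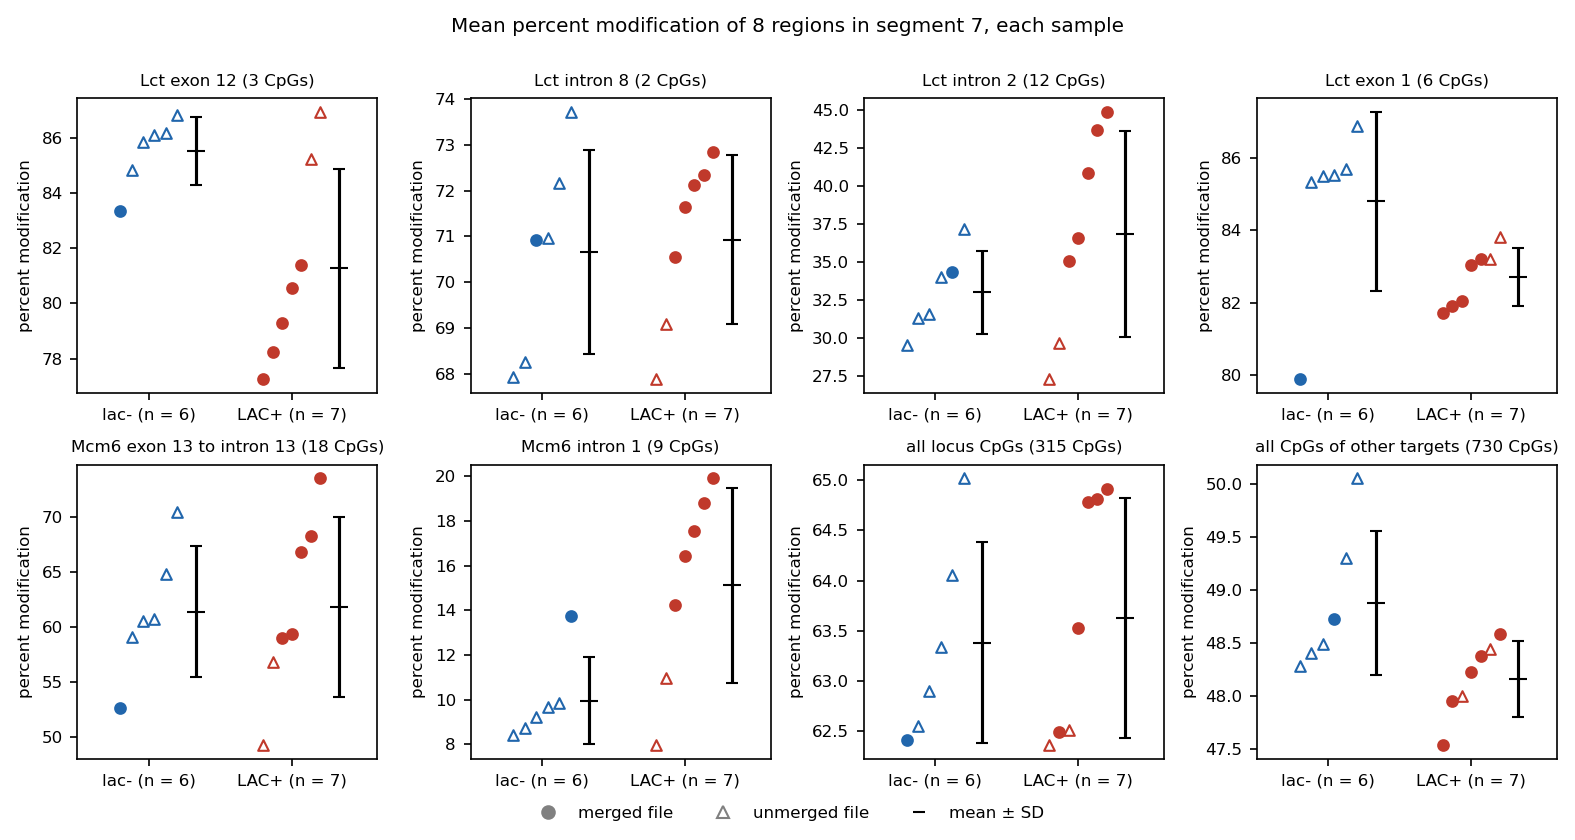
Mean percent modification of the 6 named regions, all locus CpGs and all CpGs of the other targets in each segment 7 sample (vertical axes, each with its own range). Filled circles are merged files, open triangles unmerged files, and bars the mean ± SD of 6 lac- and 7 LAC+ samples. In Lct exon 12 and Mcm6 intron 1 the merged LAC+ samples lie apart and the merged lac- sample lies nearest to them.

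Lct exon 1, which holds the start of the coding sequence, had the narrowest spread among LAC+ samples of the 6 regions. Its 6 CpG positions averaged 82.7% ± 0.81 (SD, n = 7) in LAC+ and 84.8% ± 2.47 (SD, n = 6) in lac-, a difference of -2.09 (95% interval -3.73 to 0.05, exact permutation test, p = 0.0542, adjusted p = 0.108). In LAC+ mice the samples lay from 81.7% through 83.04% to 83.8%, and lac- samples from 79.9% through 85.5% to 86.9%. The lowest lac- value belonged to the merged replicate 5, and the other lac- samples, from 85.3% to 86.9%, all lay above every LAC+ sample. Without replicate 5 the difference was -3.08 and the adjusted p 0.0101 (exact permutation test), a comparison in which no lac- sample is merged and none comes from lane 1.

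The kinds of file gave opposite signs in exon 1. Merged files averaged 82.4% in LAC+ and 79.9% in lac-, and unmerged files 83.5% in LAC+ and 85.8% in lac-. Combined within kinds the difference was -0.51 (exact permutation test, p = 0.516). All 6 CpG positions had a lower LAC+ mean, by differences of -6.13 to -0.81, and 1 of them had an unadjusted p under 0.05. This was the minus-strand cytosine at 128327686, with 68.8% ± 3.85 (SD, n = 7) in LAC+ and 74.9% ± 3.11 (SD, n = 6) in lac-.

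Lct intron 2 and Mcm6 exon 13 to intron 13 had the widest spread between samples. The 12 CpG positions of Lct intron 2 averaged 36.8% ± 6.75 (SD, n = 7) in LAC+ and 32.98% ± 2.71 (SD, n = 6) in lac-, a difference of 3.86 (95% interval -2.90 to 10.4, exact permutation test, p = 0.217, adjusted p = 0.347). LAC+ samples ran from 27.3% through 36.5% to 44.9%, and lac- samples from 29.6% through 32.8% to 37.1%. The lowest and the highest values of all both belonged to LAC+ samples, the lowest from an unmerged file and the highest from a merged one. Within kinds of file the difference was -0.52 (exact permutation test, p = 0.825). Of the 12 positions, 10 had a higher LAC+ mean, none of the 12 with an unadjusted p under 0.05. Within the intron, the cytosine at 128314548 on the plus strand stood at 23.7% ± 12.4 (SD, n = 7) in LAC+ and 14.8% ± 4.97 (SD, n = 6) in lac-. Its mean was 30.3% in the merged and 7.24% in the unmerged LAC+ files.

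In Mcm6 exon 13 to intron 13, the 18 CpG positions averaged 61.9% ± 8.15 (SD, n = 7) in LAC+ and 61.4% ± 5.92 (SD, n = 6) in lac-. Values of LAC+ samples went from 49.3% through 59.3% to 73.5%, and lac- samples from 52.7% through 60.6% to 70.4%. The diets covered almost the same range. The difference of 0.49 had a 95% interval of -8.51 to 9.41 (exact permutation test, p = 0.899), so differences of up to these bounds could not be told from 0 with this spread. Merged files averaged 65.4% in LAC+ and 52.7% in lac-, and unmerged files 53.1% and 63.1%, so the sign turned between kinds of file. All 18 positions passed the test for variation along the intestine of P60 mice. Among them, the minus-strand position at 128338195 lay only in a probe's arm and not in a captured gap.

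Over the tested CpGs, Lct intron 8 had the smallest difference of the 6 regions. Its 2 CpGs averaged 70.9% ± 1.85 (SD, n = 7) in LAC+ and 70.7% ± 2.24 (SD, n = 6) in lac-. The difference of 0.26 had a 95% interval of -2.28 to 2.78 (exact permutation test, p = 0.815). In LAC+ mice the samples lay from 67.9% to 72.8% and lac- samples from 67.9% to 73.7%. Within kinds of file the difference was -0.98 (exact permutation test, p = 0.476), with 71.9% in LAC+ and 70.9% in lac- in merged files and 68.5% and 70.6% in unmerged files. The CpG at 128298854 averaged 88.7% in LAC+ and 90.6% in lac-, and the one at 128299820 averaged 53.2% and 50.8%. The plus-strand cytosine of the CpG at 128298854 was left out for its high mean level. It averaged 89.2% in LAC+ and 91.4% in lac-, a difference of -2.25 (exact permutation test, p = 0.0408). With highly modified CpGs kept, the intron 8 difference was -0.58 and that of Mcm6 exon 13 to intron 13 was 0.47. The sign and rank of intron 8 thus rested on that removal.

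Over all 315 locus CpGs covered in every sample the diets could not be separated. The mean was 63.6% ± 1.19 (SD, n = 7) in LAC+ and 63.4% ± 1.00 (SD, n = 6) in lac-, a difference of 0.25 (95% interval -1.13 to 1.61, exact permutation test, p = 0.699). The value within kinds of file was -0.097 (exact permutation test, p = 0.849), with 64.1% in LAC+ and 62.4% in lac- in merged files and 62.4% and 63.6% in unmerged files.

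The largest difference at the locus lay beside the Lct transcription start, and was chosen after the values were seen. The stretch just upstream of the start is printed below 5′ to 3′ on the minus strand, the direction of Lct transcription, and its only CpG, in capitals, is also the only CpG of the 300 bases that RefSeq gives as the Lct promoter in this build.
Lct promoter, chr1:128328319-128328418: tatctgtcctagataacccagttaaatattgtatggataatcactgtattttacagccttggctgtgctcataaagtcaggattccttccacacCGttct

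The plus-strand cytosine of this CpG, 5 bases before the start at 128328323, averaged 29.4% ± 14.6 (SD, n = 7) in LAC+ and 15.96% ± 6.54 (SD, n = 6) in lac-. The 7 LAC+ replicates stood at 8.14%, 11.7%, 34.7%, 42.6%, 43.8%, 39.3% and 25.7%, and the 6 lac- replicates at 11.5%, 13.1%, 23.5%, 9.69%, 24.96% and 12.97%. The 5 merged LAC+ samples were the highest, the merged lac- sample stood next, and the 2 unmerged LAC+ samples were among the lowest. The difference of 13.5 percentage points had an unadjusted quasi-binomial p of 0.0617 and a permutation p of 0.0688 (exact), and was 1.85 within kinds of file (exact permutation test, p = 0.762). The minus-strand cytosine, read by another probe, gave 28.2% and 15.8%. Its LAC+ mean was 35.8% in merged and 9.30% in unmerged files.

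Outside the named regions, the CpGs of the locus with the lowest p lay at the 3′ end of Lct and in Mcm6 exon 4. At 128284746 on the minus strand, downstream of Lct, the LAC+ samples ran from 85.6% through 89.0% to 89.9% and the lac- samples from 89.9% through 91.0% to 91.6%. This was 1 of 2 CpGs in all (0.175%) whose diets did not overlap, though the highest LAC+ and the lowest lac- values nearly touched. The difference was -2.24 (exact permutation test, p = 0.00291), and -1.53 within kinds of file (p = 0.0556, exact permutation test). The plus-strand cytosine of this CpG gave 90.4% in LAC+ and 90.7% in lac-, a difference of -0.27 (exact permutation test, p = 0.765).

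The remaining 4 of these CpGs had lower LAC+ means as well. At 128285272, in the last exon of Lct, LAC+ averaged 77.2% and lac- 80.6%. In Lct intron 13 the cytosine at 128290504 averaged 82.6% and 86.3%, and the one at 128289505 averaged 87.1% and 89.6%. In Mcm6 exon 4 the cytosine at 128351546 averaged 82.04% and 84.4%. Their differences of -3.69 to -2.40 percentage points had unadjusted p-values of 0.00473 to 0.00607 in the quasi-binomial model, none passed an adjustment (Benjamini-Hochberg adjusted p = 0.285), and within kinds of file none had a permutation p under 0.05. A cytosine of the other strand was covered for 2 of them. For 128290504 it gave 89.3% and 91.4% (exact permutation test, p = 0.0035), and for 128289505 it gave 89.3% and 89.7% (exact permutation test, p = 0.801).

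The lowest p of all tested CpGs lay outside the locus, at 63280348 of chromosome 1, on the minus strand, in a target at Zdbf2, an imprinted gene expressed from the paternal copy. Together with a second CpG of the same target it is printed because both also had a permutation p under 0.05 within kinds of file. Both are printed on the plus strand with the CpG in capitals.
Zdbf2 target, chr1:63280327-63280368: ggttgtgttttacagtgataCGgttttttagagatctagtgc
Zdbf2 target, chr1:63251551-63251592: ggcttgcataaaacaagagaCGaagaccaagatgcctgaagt

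The first averaged 68.8% ± 1.33 (SD, n = 7) in LAC+ and 73.1% ± 1.74 (SD, n = 6) in lac-. LAC+ samples ran from 67.3% through 68.6% to 71.3%, and lac- samples from 71.0% through 72.9% to 75.4%. Only the highest LAC+ and the lowest lac- sample overlapped. The difference of -4.35 had an unadjusted quasi-binomial p of 0.000198, a Bonferroni-adjusted p of 0.226 and an exact permutation p of 0.00175. Within kinds of file it was -3.85 (exact permutation test, p = 0.0159), with 68.3% in merged LAC+ files against 73.4% in the merged lac- file and 69.9% against 73.0% in unmerged files. The plus-strand cytosine of the same CpG gave 61.6% ± 3.05 and 63.1% ± 2.92 (SD, n = 7 and 6), a difference of -1.56 (exact permutation test, p = 0.359).

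The second, at 63251571 on the plus strand, was the other CpG whose diets did not overlap. Values of LAC+ samples went from 44.3% through 47.7% to 49.2% and lac- samples from 49.8% through 50.1% to 53.1%, from 2765 to 11774 reads each. The difference of -3.19 had an exact permutation p of 0.00117 and, within kinds of file, was -2.77 (exact permutation test, p = 0.0238). Its Bonferroni-adjusted p was 1.0 in the quasi-binomial model.

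The remaining CpG of the 3 named at other targets lay in a target at Peg3 and Usp29, imprinted genes that share a promoter region, at 6732115 of chromosome 7 on the minus strand. It averaged 59.7% ± 5.73 (SD, n = 7) in LAC+ and 50.2% ± 6.73 (SD, n = 6) in lac-, from only 35 to 659 reads. The difference of 9.44 had an exact permutation p of 0.0245 and was 8.73 within kinds of file (exact permutation test, p = 0.0714). The diets overlapped, with a highest value of 65.5% in LAC+ and 62.2% in lac-.

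**Figure D3:**
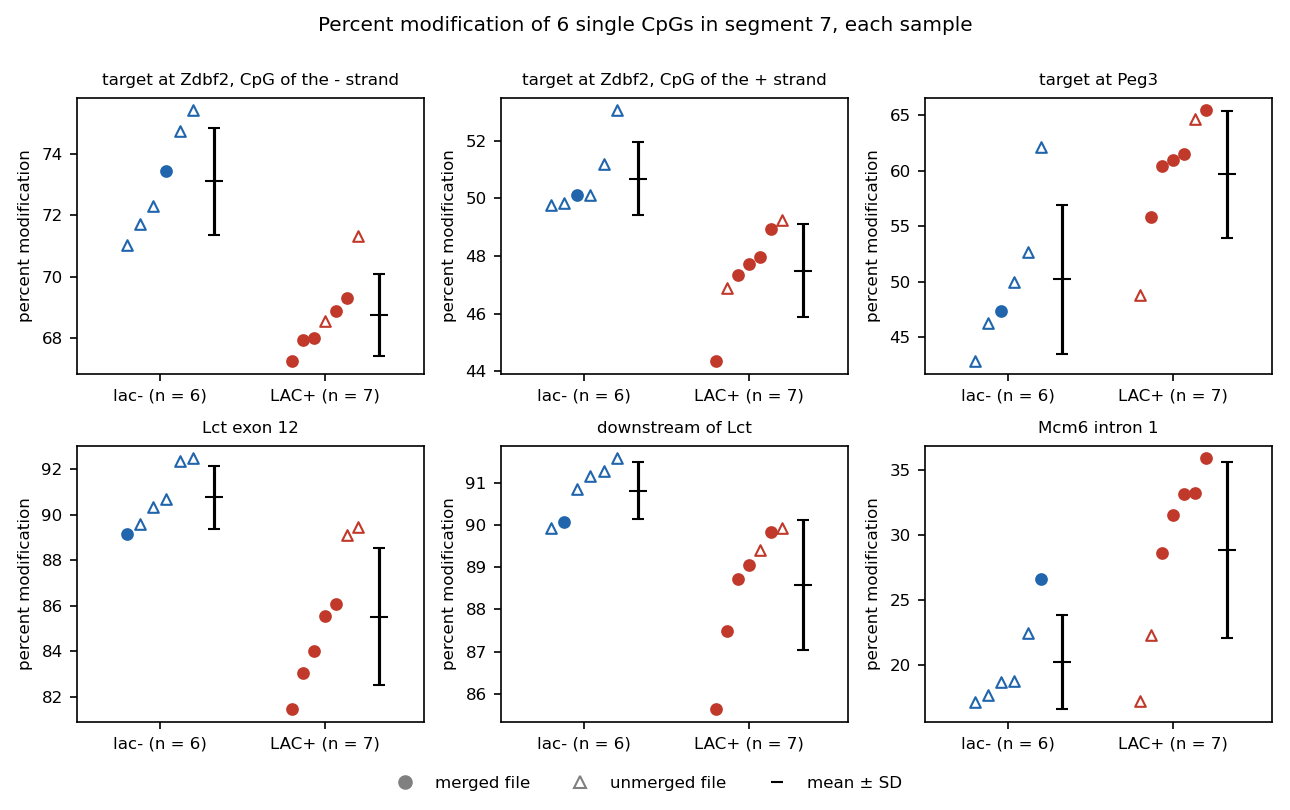
Percent modification of 6 single CpGs in each segment 7 sample (vertical axes, each with its own range), with filled circles for merged files, open triangles for unmerged files, and bars for the mean ± SD. At the CpGs of Zdbf2 the merged lac- sample lies among the other lac- samples, and in Mcm6 intron 1 it lies between them and the merged LAC+ samples.

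Summarised by exon, intron, flank or target, 57 features held at least 3 CpGs covered in every sample. The LAC+ mean was lower in 32 and higher in 25. Of the 57, 9 (15.8%) had an exact permutation p under 0.05, of which 0 passed after Benjamini-Hochberg adjustment (lowest adjusted p = 0.238, exact permutation test), and within kinds of file 0 had a permutation p under 0.05. Besides Lct exon 12 and Mcm6 intron 1, those of the locus were Mcm6 exon 4, with 81.6% ± 2.68 in LAC+ and 85.1% ± 1.32 in lac- (SD, n = 7 and 6), Lct exon 11, with 80.2% and 81.8%, and Lct exon 17, with 74.8% and 75.99%. Exon 4 had the widest of these 3 gaps, -3.51 percentage points over all samples and -1.31 within kinds of file.

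The largest feature differences lay at imprinted targets of high level. The 9 CpG positions at Kcnq1 and Kcnq1ot1, a potassium channel gene and the imprinted antisense RNA inside it, averaged 74.4% ± 9.03 (SD, n = 7) in LAC+ and 83.9% ± 4.02 (SD, n = 6) in lac-. In LAC+ mice the samples lay from 64.3% through 71.7% to 86.2%, and lac- samples from 76.4% through 84.7% to 87.9%. The difference of -9.58 had an exact permutation p of 0.0414 and shrank to -2.28 within kinds of file (exact permutation test, p = 0.444). Merged files averaged 69.8% and 76.4%, and unmerged files 85.7% and 85.4%, in LAC+ and lac- in turn.

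The target at Blcap, a gene in an imprinted domain, showed the same layout by kind of file. Its 8 CpG positions averaged 80.4% ± 7.60 (SD, n = 7) in LAC+ and 88.4% ± 2.62 (SD, n = 6) in lac-, a difference of -7.93 (exact permutation test, p = 0.0472) that was -1.89 within kinds of file (exact permutation test, p = 0.492). The 5 merged LAC+ samples and the merged lac- sample had a lower level than every unmerged sample. Unmerged files averaged 90.2% in LAC+ and 89.4% in lac-.

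The other targets among the 9 features, at middle levels, had smaller differences. At Airn and Igf2r, an imprinted antisense RNA and the receptor gene it lies across, the 13 CpG positions averaged 50.4% ± 0.59 (SD, n = 7) in LAC+ and 51.7% ± 0.93 (SD, n = 6) in lac-. The difference was -1.23 (exact permutation test, p = 0.00816, adjusted p = 0.238) and -1.21 within kinds of file (exact permutation test, p = 0.0714). At Zdbf2 the 181 CpG positions averaged 40.1% ± 0.56 (SD, n = 7) and 41.3% ± 1.00 (SD, n = 6), a difference of -1.20 (exact permutation test, p = 0.00991) that was -0.73 within kinds of file (exact permutation test, p = 0.214). Middle-level targets outside these 9 could turn sign or grow, as at Herc3 and Nap1l5 with 0.32 over all samples and -1.15 within kinds of file, and at Plagl1 with -0.025 and -1.28.

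**Figure D4:**
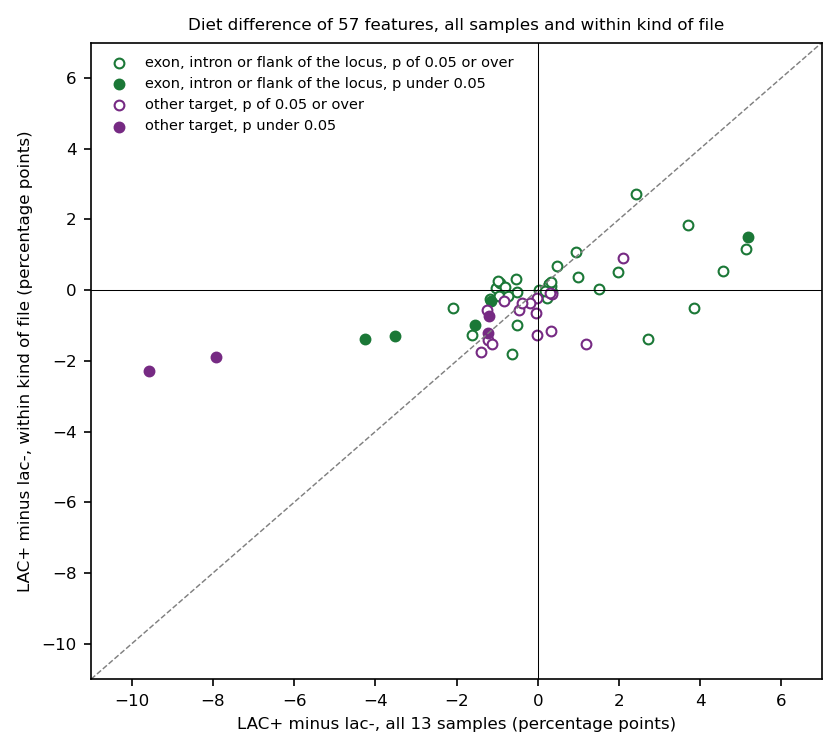
Difference of mean modification (LAC+ minus lac-, percentage points) of 57 features over all 13 samples (horizontal axis) and within kinds of file (vertical axis), with a dashed line of equal values. Filled points have an exact permutation p under 0.05 over all samples. The targets at Kcnq1 and Blcap, at -9.58 and -7.93 on the horizontal axis, lie at -2.28 and -1.89 on the vertical axis.

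The 730 CpGs of the other targets together averaged 48.2% ± 0.36 (SD, n = 7) in LAC+ and 48.9% ± 0.68 (SD, n = 6) in lac-. LAC+ samples ran from 47.5% through 48.2% to 48.6%, and lac- samples from 48.3% through 48.6% to 50.1%, so the ranges overlapped in part. The difference of -0.72 (95% interval -1.38 to -0.12) had an exact permutation p of 0.0198 and an adjusted p of 0.0668. Merged and unmerged files gave differences of the same sign, -0.59 and -0.68, and the combined value within kinds was -0.65 (exact permutation test, p = 0.103).

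Grouping CpGs by their level in segment 7 of P60 mice, a grouping added after the data were seen, showed how the kinds of file differed. Positions that lay only in a synthetic probe arm were not removed from these groups. At the locus 20 tested CpGs were of this kind, with lac- means of 0.517% to 14.6%, and their part in the low group was not tested. At the 62 locus CpGs with a P60 level of 0 to 20%, merged files of both diets ran from 6.15% to 9.29% and unmerged files from 4.26% to 5.30%, without overlap. In that group of 62 the means were 8.02% in merged LAC+ files, 6.25% in the merged lac- file, 4.28% in unmerged LAC+ files and 4.64% in unmerged lac- files. Merged files exceeded unmerged ones of the same diet by 2.95 percentage points (exact permutation test within diets, p = 0.00794, the smallest possible, adjusted p = 0.0159 over 10 groups).

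Highly modified CpGs stood the other way round. At the 53 CpGs of other targets with a P60 level of 80 to 90%, merged files ran from 78.3% to 83.2% and unmerged files from 85.4% to 87.4%. The means were 80.2% in merged LAC+ files, 82.7% in the merged lac- file, 86.7% in unmerged LAC+ files and 86.6% in unmerged lac- files, a difference between kinds of file of -5.53 (exact permutation test, p = 0.00794, adjusted p = 0.0159). At the 319 locus CpGs with a level over 90% merged files ran from 92.3% to 93.0% and unmerged files from 93.2% to 93.9%.

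The diets themselves did not pass in any of the 10 groups of level after adjustment. The lowest adjusted p was 0.110 (exact permutation test), and the diet difference in the locus group of 0 to 20% was 2.05 over all samples and 0.43 within kinds of file. In the group of 80 to 90% at other targets it was -3.94 over all samples and -0.91 within kinds of file. In both groups the mean of the merged LAC+ files lay further from the unmerged files than the merged lac- file did, while merged LAC+ replicate 7 lay closer to them, at 6.15% against 6.25% and at 83.2% against 82.7%.

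**Figure D5:**
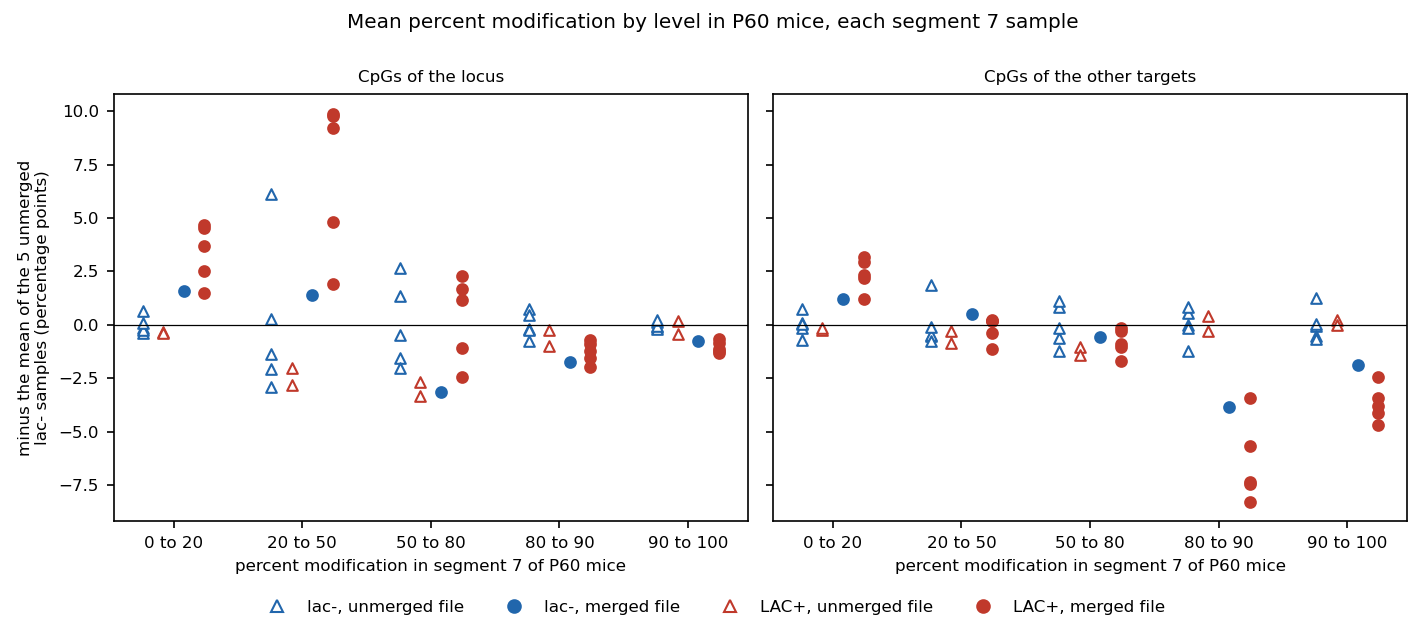
Mean percent modification of each segment 7 sample minus the mean of the 5 unmerged lac- samples (percentage points), for CpGs grouped by their percent modification in segment 7 of P60 mice, at the locus (left) and the other targets (right). Filled circles are merged files and open triangles unmerged files. Positions in probe arms were kept. Merged files of both diets lie above 0 in the group of 0 to 20 and below 0 in the groups over 80.

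Segments 8 and 4 of the milk-fed mice, with 7 samples of each diet, were set beside segment 7 as the next ileal segment and a jejunal one. In segment 4 all 7 LAC+ samples and 5 of the lac- samples were merged files of lane 3, and the other lac- samples unmerged files of lane 5. In segment 8, 6 LAC+ samples were merged and 1 was not, all from lane 1, while 1 lac- sample was merged in lane 1 and 6 were unmerged in lanes 6 and 7. In Lct exon 12 the diet difference in segment 8 was -3.81 over the same 3 CpGs (exact permutation test, p = 0.0146), but -0.0047 within kinds of file. In segment 4 it was -2.01 (exact permutation test, p = 0.0833) and -1.30 within kinds of file, over 5 CpGs at which segment 7 had -3.90. In Lct exon 1 it was -2.28 in segment 8 (exact permutation test, p = 0.00291) and -1.17 within kinds of file, and in segment 4 it was -0.31 and -0.30. In Mcm6 intron 1 it was 5.73 in segment 8 (exact permutation test, p = 0.00117) and 2.44 within kinds of file, and in segment 4 it was 5.44 and 2.68. None of these passed a test of the difference from segment 7 itself (exact permutation of diets within segments, adjusted p = 0.997 over 16 tests).

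A single difference between segments passed. The mean of the other targets was lower in LAC+ in segment 7 and higher in LAC+ in segment 4, where it stood at 48.6% ± 0.44 (SD, n = 7) in LAC+ and 47.9% ± 0.36 (SD, n = 7) in lac-. Over the 739 CpGs shared by both segments the diet differences were -0.74 and 0.70, and they differed by -1.44 (exact permutation of diets within segments, adjusted p = 0.00481). From pooled reads in place of the mean over CpGs the value was -0.84 and the adjusted p 0.298, and within kinds of file it was -1.39 with an adjusted p of 0.073 (both permutation tests).

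The lac- samples of lane 1 were also compared with other lac- samples. In segments 3, 7 and 8, 1 lac- sample each came from lane 1, and each was also the only merged lac- file of its segment, so lane and mark cannot be told apart. It was set beside the lac- samples of lanes 6 and 7, leaving out 1 lac- sample of segment 3 that came from lane 3. The lane 1 sample minus their mean was 4.37, 4.56 and 4.42 percentage points in Mcm6 intron 1, and -3.74, -2.61 and -5.17 in Lct exon 12, for segments 3, 7 and 8 in turn. In other regions the sign could change between segments. It was 0.77, -5.89 and -2.54 in Lct exon 1, and 8.88, -10.44 and -7.56 in Mcm6 exon 13 to intron 13. These values rest on 1 sample a segment and were not tested.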

How the data were processed

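DNA of the 13 samples was bisulfite-converted, captured with padlock probes and sequenced. The authors trimmed and aligned the reads to GRCm38/mm10 (Trimmomatic 0.32 and Bismark in the submitters' processing notes) and deposited counts of modified and unmodified reads per cytosine, without normalisation. Percent modification was computed where more than 30 reads were present. Of 3762 CpG cytosines listed, 1503 had such coverage in at least 3 samples of each diet. After removal of 361 with a mean over 90%, 1142 were tested, each strand apart. PCR copies are not independent molecules.

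Each CpG was fitted with a quasi-binomial model of its counts on diet (Bonferroni 0.01 over all tested CpGs), with limma on log2 odds (pseudocount 0.5 reads) as an alternative. Means of regions and features over CpGs covered in every sample were compared by two-sided exact permutation tests, over all samples and with diets exchanged within merged and within unmerged files. Intervals were obtained by inverting the test. CpGs that varied along the intestine of P60 mice had a Bonferroni-adjusted p under 0.01 in a quasi-binomial test across segments. That test covered 653 CpGs of the locus and 71 P60 samples. The samples were taken as independent, since the labels do not tie those of different segments to the same mouse. Genes were taken from GENCODE vM21. Named CpGs were any past the threshold, the 6 of the locus and the 3 of other targets with the lowest p, and the lowest in each of the 6 regions. The samples, regions and lists were chosen with earlier results of these data known. Alternatives covered the coverage minimum, pooled reads, strands, lane, the merged mark, the replicate block and leaving out each sample. Calculations were tested on simulated data and used Python 3.11.15, NumPy 2.4.6, SciPy 1.17.1, pandas 2.3.3, Matplotlib 3.10.9, R 4.3.3, limma 3.58.1 and samtools 1.23.1.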

Additional observations from a re-analysis of the deposited data

Results flagged for a closer look

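Among 44 groups of samples examined for a single sample apart from the rest, 3 had one by Dixon's criterion at the 95% level. About 1 in 20 independent groups would be flagged at that level by chance. These groups share samples and CpGs, so that rate need not hold for them, and it was not tested. In Lct exon 1, lac- replicate 5 stood at 79.9%, below the other lac- samples at 85.3% to 86.9%. In Mcm6 intron 1 the same replicate stood at 13.7%, above the other lac- samples at 8.40% to 9.87%. This replicate was the only lac- sample from lane 1 and the only merged one, and the part of either in these values cannot be told apart. At the CpG at 128289505 in Lct intron 13, LAC+ replicate 1, an unmerged file, stood at 90.2%, above the other LAC+ samples at 85.3% to 87.4%.

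The diet difference over the other targets in segment 7 minus that in segment 4 was -1.44 percentage points, with opposite signs in the 2 segments. The difference passed the exact permutation test after adjustment (adjusted p = 0.00481), and did not pass from pooled reads or within kinds of file.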

How the results depend on the processing

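Under every alternative run, 0 CpGs passed Bonferroni at 0.01. At Benjamini-Hochberg 0.05, 1 CpG, 63280348 at Zdbf2, passed without LAC+ replicate 1 (adjusted p = 0.0298 in the quasi-binomial model), and 0 under the others. The share of tested CpGs with an unadjusted p under 0.05, 15.6% over all samples, was 4.55% with the merged mark and 4.29% with the lane as a covariate, 4.13% in unmerged files, 5.63% in merged files and 4.83% in lane 1. It ran from 10.4% (without lac- replicate 3, where the count was more than 1.5 times lower) to 18.9% (without LAC+ replicate 1) when samples were left out. Replicate numbers did not pair the samples: deviations of same-numbered samples correlated by 0.0016 on average (-0.325 to 0.264, 6 pairs), and with the number as a replicate block the share was 15.8% (181 CpGs).

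Region differences (LAC+ minus lac-, percentage points) turned sign as follows. In unmerged files they were 0.13 in Lct exon 12, -2.12 in intron 8, -4.26 in intron 2, -10.05 in Mcm6 exon 13 to intron 13 and -1.14 over the locus. Within kinds of file they were -0.98, -0.52, -1.67 and -0.097 for the last 4. Lct exon 1 was 2.49 in merged files and 2.82 in lane 1. Lct intron 8 was -0.0042 in lane 1 and -0.58 with highly modified CpGs kept. The locus mean was -0.20 with these kept and -0.23 from pooled reads. Between segments 7 and 8, Mcm6 exon 13 to intron 13 was -0.98 within kinds of file, an alternative added after seeing the data. The contrast with segment 4 over the other targets was -0.84 from pooled reads and -1.39 within kinds of file, no longer past the threshold.

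Leaving out samples gave -5.19 to -3.58 in Lct exon 12, -0.29 to 0.87 in intron 8, 2.52 to 5.45 in intron 2, -3.08 to -1.68 in exon 1 (adjusted p = 0.0101 without lac- replicate 5, exact permutation test), -1.45 to 2.58 in Mcm6 exon 13 to intron 13, 4.37 to 6.37 in intron 1 (adjusted p = 0.0346 without LAC+ replicate 2, exact permutation test), 0.033 to 0.57 over the locus and -0.83 to -0.48 over the other targets. Of the named CpGs, 128314931 turned to 0.011 (log odds) with lane as a covariate and 0.47 in lane 1, and 128338093 to -8.60 in unmerged files. The cause was not tested. Within merged files the diets allow only 6 arrangements, with a smallest p of 0.167, so p-values there say nothing of stability. With 1 merged lac- sample, differences within kinds of file have little precision.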

Other observations

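Some tested CpGs of segment 7 lay in the arms of probes and not in the captured gaps. Of 604 probes listed, 603 could be placed on the genome, with gaps of 90 to 140 bases. Among the tested CpGs, 1073 lay in the gap of a probe of their own strand, and 45 (20 at the locus and 25 at other targets) lay only in a probe's arm, which is synthetic. These 45 had a median level of 3.15%, from 0.517% to 19.96%. For 19 of them the opposite strand lay in a gap and there had a median of 82.6%. Of the 45, 1 (2.22%) had an unadjusted p under 0.05, beside 172 of the 1073 in gaps. A position of Mcm6 exon 13 to intron 13, at 128338195 on the minus strand, was of this kind, with 7.01% in LAC+ and 7.62% in lac- against 65.8% and 67.8% on the opposite strand. Without arm positions, an alternative chosen after seeing the data, the difference of that region was 0.55 and 177 of 1097 CpGs had an unadjusted p under 0.05.

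At 181 CpGs both strands were tested, and the diet difference had the same sign on both in 64.6%. At the locus the sign was shared in 75 of 110 (68.2%). Pairs in which a strand lay only in a probe's arm, such as that of 128338195, were kept in these counts.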
